A study of Homo sapiens with 3 samples.

Results

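The mRNAs of 10 human chaperone genes were examined for clusters of C-to-U editing left by a fusion of the splicing regulator RBFOX2 with the cytidine deaminase APOBEC1. The genes were the HSP90 genes HSP90AA1, HSP90AB1 and HSP90B1, the HSP70 genes HSPA8, HSPA5, HSPA9, HSPA4, HSPA1A and HSPA1B, and HSPD1, which encodes the mitochondrial chaperonin HSP60. A cluster was assigned to a gene when the gene annotation deposited with it carried exactly that symbol, so that pseudogenes were left out. In all, 83 of 40843 clusters lay in these genes, namely 29 of 14295 in replicate 1, 23 of 15181 in replicate 2 and 31 of 11367 in replicate 3. Of the 10 genes, 8 had a cluster in at least 1 replicate, out of 9904 gene names with a cluster in any replicate. HSPA1A and HSPA1B had no cluster in any replicate.

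The data come from STAMP, in which an RNA-binding protein is fused to APOBEC1 and the C-to-U changes in sequenced RNA record where the fusion was. The single condition comprised 3 replicates of human embryonic kidney cells labelled as wild type, titled HEK293T and given as the lenti-X derivative HEK293XT in the cell line label, in which expression of the fusion was induced with doxycycline for 72 h. The labels give the treatment as transient transfection while the growth protocol describes stable lines, and neither a control without the fusion nor APOBEC1 alone was analysed here. Every value below therefore describes editing in the presence of the fusion, with no background level to subtract. The spread between replicates was the only error available, apart from the counting error of reads.

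HSP90 and HSP70 proteins are ATP-dependent chaperones that bind client proteins and let them fold, mature or be passed on. HSP90AA1 and HSP90AB1 are the stress-inducible and the constitutive cytosolic HSP90, and HSP90B1 (GRP94) is the HSP90 of the endoplasmic reticulum. HSPA8 (HSC70) is the constitutive cytosolic HSP70, HSPA1A and HSPA1B are its heat-inducible relatives, HSPA4 is an HSP110-type nucleotide exchange factor for HSP70, HSPA5 (BiP) works in the endoplasmic reticulum and HSPA9 (mortalin) in mitochondria. RBFOX2 is best known as a regulator of alternative splicing that also binds in 3′ untranslated regions, and these chaperone mRNAs are abundant in most cultured cells.

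Each cluster has an edit fraction, in which the C positions read as edited are divided by every C position that its reads covered, and an edited-read share, the reads with at least 1 edit divided by all reads in the cluster. The chaperone genes together held 1124, 963 and 664 edited bases in replicates 1, 2 and 3. This was 0.945% ± 0.143 (SD, n = 3) of all edited bases in clusters, and 1.39% ± 0.260 of all covered C bases, from 0.209% ± 0.0608 of the clusters. Most of these edits were in HSP90 mRNAs, which held 81.6% ± 4.73 of the chaperone edited bases in 9 ± 1.73 clusters per replicate. The HSP70 genes held 15.4% ± 4.72 in 16.7 ± 2.52 clusters, and HSPD1 held 2.97% ± 2.13 in 2 clusters per replicate. The HSP90 genes thus had fewer clusters with more edited bases than the HSP70 genes in the same libraries. Of the 17, 14 and 19 HSP70 clusters in replicates 1, 2 and 3, HSPA4 alone held 8, 8 and 11. The lower count in the HSP90 genes (10, 7 and 10) rested on HSPA4. HSP90 clusters were also deeper, with medians of the mean depth of 751, 608 and 358 against 155, 97.5 and 104. The part of depth in their edited bases was not tested.

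HSP90AA1 carried the most edited bases of the 10 genes in each replicate, with 731, 518 and 323. Among the genes with a cluster it ranked 4 of 6999 in replicate 1, 10 of 7188 in replicate 2 and 10 of 6037 in replicate 3 by edited bases. Its pooled edit fraction, edited bases over covered C bases summed over its clusters, was 0.739%, 0.747% and 0.786% (mean 0.757% ± 0.0256, SD, n = 3). Edited reads made up 5.82%, 5.68% and 4.64% of its reads. The edit fraction thus varied little between replicates while the edited bases differed widely, as did the covered C bases, of which there were 98966 in replicate 1 and 41071 in replicate 3. All 11 clusters of HSP90AA1 lay in the exon that the deposited annotation numbers 0, on the minus strand of chromosome 14. Exon numbers in the files rose with genomic position on both strands (100% of 3718 neighbouring pairs of clusters in different exons on the plus strand and 3572 on the minus strand), so exon 0 of a minus-strand gene is the exon nearest its 3′ end. How the files count exons is not given. In the chaperone genes every exon number was even and the only intron was numbered 15. All exon numbers below are those of the files and need not be ranks of exons.

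Within that exon, 3 clusters with at least 11 edited reads were found in every replicate, and their edit fractions kept one order. The middle cluster, which started at chr14:102547555 (hg19) in each replicate, had 1.07%, 1.17% and 1.16%. It ended at 102547735, 102547720 and 102547840 in replicates 1, 2 and 3. In replicate 3 it thus took in bases that lay in the upstream cluster of replicates 1 and 2. The cluster downstream of it in the mRNA, within chr14:102547375-102547525, had 0.448%, 0.438% and 0.496%. The cluster upstream of it, within chr14:102547765-102548080, had 0.654%, 0.690% and 0.617%. In replicate 3 it started only at 102547870, so the ratios below do not compare identical stretches in all replicates. All values of the middle cluster lay above all values of its neighbours, and it was 2.47 ± 0.187 times the downstream and 1.74 ± 0.125 times the upstream cluster (SD, n = 3). The edited-read shares gave ratios of 2.18 ± 0.236 and 1.75 ± 0.123. The mean depths of the downstream, middle and upstream clusters were 1262, 1042 and 718 in replicate 1, 708, 608 and 610 in replicate 2, and 519, 325 and 456 in replicate 3. The middle cluster was thus the shallowest in replicates 2 and 3, and the part of depth in its higher edit fraction was not tested. Joined across replicates by overlap, these clusters formed 2 loci found in all 3 replicates, at 0.461% ± 0.0314 for chr14:102547375-102547525 and 0.871% ± 0.0274 for chr14:102547555-102548080. A further small cluster at chr14:102547240-102547300, nearer still to the 3′ end, was found in replicates 1 and 2 at 1.14% and 1.72%, from 2 and 4 edited reads.

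HSP90AB1, the constitutive paralog, held 171, 215 and 111 edited bases and ranked 56, 38 and 68 among the genes. Its pooled edit fraction was 0.350%, 0.469% and 0.747% (mean 0.522% ± 0.204, n = 3), and its edited-read shares were 3.60%, 4.66% and 3.27%. Replicate 3 was the highest by bases and the lowest by reads, and it was also the replicate in which 1 cluster was called over a shorter stretch. That cluster was the upstream of 2 in the last exon with clusters (exon 24 of the files, plus strand of chromosome 6). It spanned chr6:44221316-44221421 with 29 C bases in replicates 1 and 2, at 0.236% and 0.263%, and ended at 44221361 with 4 C bases in replicate 3, at 0.713%. The downstream cluster started at chr6:44221466 in each replicate and had 0.644%, 1.03% and 0.787%. It exceeded the upstream cluster in every replicate, 2.73, 3.90 and 1.11 times by edit fraction and 1.82, 2.40 and 3.81 times by edited-read share. The only other cluster of HSP90AB1 was in exon 6 in replicate 3, with 5 edited reads of 482.

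The paralogs were compared within each library. The pooled edit fraction of HSP90AA1 exceeded that of HSP90AB1 by 0.388, 0.277 and 0.0390 percentage points in replicates 1, 2 and 3 (mean 0.235 ± 0.178). The direction was the same in 3 of 3 replicates by pooled fraction, and with medians of clusters it turned in replicate 3 (0.617% against 0.713%). The exact two-sided sign-flip permutation test gave p = 0.25, the smallest that 3 replicates allow, and an adjusted p of 0.75 over the 3 gene pairs tested. The gap in replicate 3 was a small part of that in replicate 1.

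**Figure D1:**
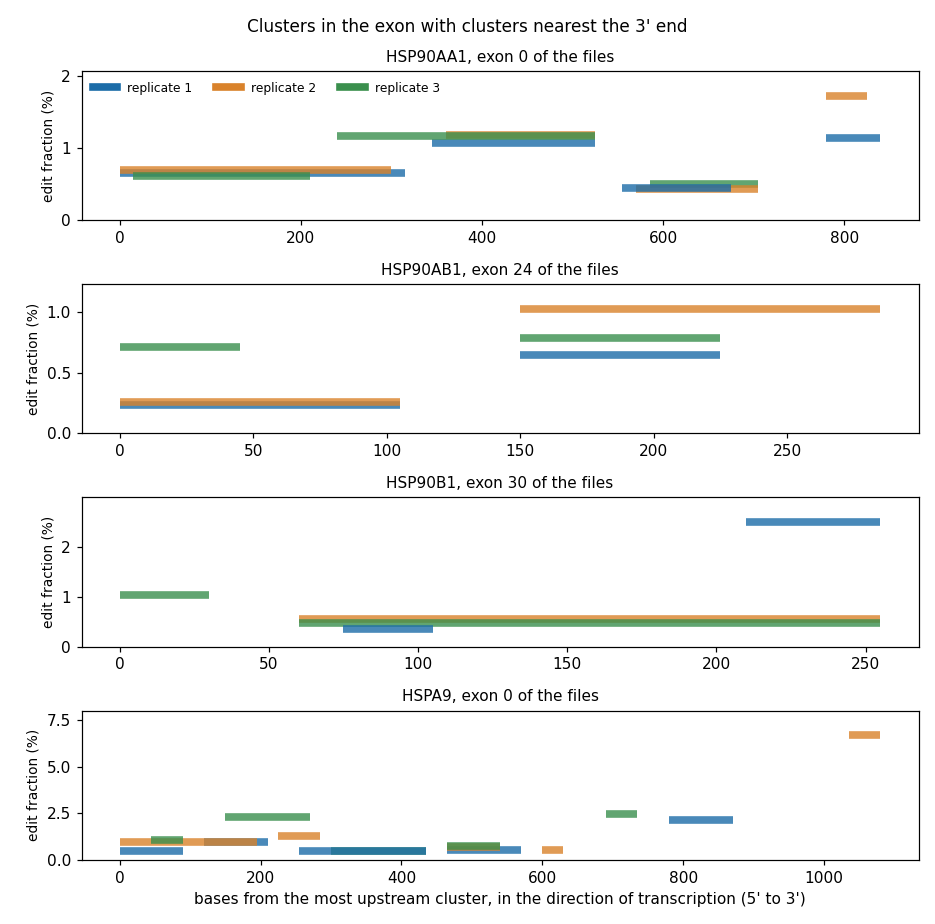
Each bar is a cluster in the exon with clusters that lies nearest the 3′ end, drawn from its first to its last base in the direction of transcription (x axis, bases from the most upstream cluster) at the height of its edit fraction (y axis, percent), coloured by replicate. In HSP90AA1 the middle cluster lay at 1.07% to 1.17% in the 3 replicates, above both neighbours. In HSP90AB1 the downstream cluster lay above the upstream one in each replicate, and in HSPA9 the bars tile the exon without a repeated order.

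In the endoplasmic reticulum pair, HSP90B1 had clusters in all 3 replicates and HSPA5 in 2. HSP90B1 held 37, 86 and 72 edited bases at pooled edit fractions of 0.784%, 0.560% and 0.504% (mean 0.616% ± 0.148, n = 3). Of its 6 loci, 1 was found in all 3 replicates, at chr12:104341471-104341666 in exon 30, with 0.639%, 0.560% and 0.475% (0.558% ± 0.0820). Replicates 2 and 3 had the same bounds there, whereas replicate 1 had 2 short clusters inside them. These differed: 0.353% over 30 bases at a mean depth of 784, and 2.49% over 45 bases at a mean depth of 124, with edited-read shares of 0.985% (95% Wilson interval 0.500% to 1.93%) and 8.03% (4.54% to 13.8%). The intervals cover counting error only. The other 5 loci of HSP90B1, in exons 4, 6, 14 and 30, were each found in 1 replicate with 2 or 3 edited reads.

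HSPA5 had 3 clusters in replicate 1, none in replicate 2 and 2 in replicate 3, all in exon 0 on the minus strand of chromosome 9. Its pooled edit fraction was 0.644% and 0.564% in replicates 1 and 3 (mean 0.604% ± 0.0564, n = 2). The cluster with the most edited reads, 10 of 320 in replicate 1, was at chr9:127998572-127998647 with 0.810% edited. The cluster overlapping it in replicate 3 had 0.490%, from 4 edited reads of 252. HSP90B1 minus HSPA5 was 0.140 percentage points in replicate 1 and -0.0596 in replicate 3, so the direction was not shared, and the exact sign-flip permutation test gave p = 1 where 2 replicates cannot give less than 0.5.

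The cytosolic HSP70 genes ranged from none to many clusters. HSPA8 had a single cluster at chr11:122928287-122928332 (exon 0, minus strand) in replicates 1 and 2 and none in replicate 3. It had 0.424% and 0.578% edited (mean 0.501% ± 0.109, n = 2) at mean depths of 366 and 215, with 7 edited reads of 602 and 8 of 426. HSPA8 and HSPA5 both had clusters in replicate 1 alone, where HSPA8 was lower by 0.220 percentage points, and no test was possible. For HSPA1A and HSPA1B no value can be given, since only regions that passed the cluster calling were analysed here and the reads over these genes are not known. These genes are near-identical copies whose reads can map to both, and how such reads were handled is not given in the sources used here.

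HSPA4 was the gene with the most clusters, 8, 8 and 11, and none of them was found in all 3 replicates. They fell into 21 loci, 6 of them found in 2 replicates and 15 in 1. Its pooled edit fraction was 0.821%, 0.782% and 0.867% (mean 0.823% ± 0.0425, n = 3). These values pool mostly different stretches, and only stretches that passed the cluster calling enter them. Their closeness therefore does not show that the same sites were edited alike in each replicate. The clusters had mean depths of 12.8 to 180, and each rested on 1 to 6 edited reads. Their median depths of 87.4, 93.5 and 92.8 in replicates 1, 2 and 3 were below those of the HSP90 clusters (751, 608 and 358). They were above those of all clusters outside the chaperone genes (25.1, 24.6 and 21.0). The HSPA4 clusters were also spread along the transcript from the exon numbered 2 to the exon numbered 38 in the files. The share of HSPA4 edited bases in exon 38, the last with a cluster, was 11.8%, 14.7% and 68.4%. The cluster of HSPA4 with the most edited reads was at chr5:132435282-132435327 in exon 32, with 6 of 249 reads edited in replicate 1 (0.813% of C bases, 95% Wilson interval 0.373% to 1.76%). In replicate 3, a cluster of 90 bases at chr5:132440615-132440705 had 12 edited bases in 2 edited reads, which was the highest number of edits per edited read among the 83 chaperone clusters.

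Of the mitochondrial genes, HSPA9 had 5, 5 and 6 clusters, with 97, 57 and 65 edited bases. Its pooled edit fraction was 0.570%, 0.904% and 0.736% (mean 0.737% ± 0.167, n = 3), and its edited-read shares were 2.82%, 3.20% and 3.00%. On the minus strand of chromosome 5, 15 of its 16 clusters were in exon 0, and 10 of the 16 were found in all 3 replicates. The locus chr5:137891126-137891231 had 0.556%, 0.684% and 0.728% (0.656% ± 0.0892). The neighbouring locus chr5:137891261-137891696, covered by 2 or 3 clusters per replicate, had 0.778% ± 0.240. Nearer the 3′ end, 4 loci were found in 1 replicate each, and the 3 outermost had 2.14%, 2.48% and 6.67% edited at mean depths of 34.3, 11.9 and 5.74. The highest of these fractions rested on 3 edited reads of 8.

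HSPD1 had 2 clusters in every replicate and all 6 were at different places. In replicates 2 and 3 its pooled edit fraction was 0.489% and 0.414% (0.451% ± 0.0529, n = 2). In replicate 1 it was 5.04%, which raised the mean to 1.98% ± 2.65 (n = 3). The edited-read shares did not follow this, at 0.601%, 0.822% and 1.43%, with replicate 1 the lowest. Both clusters of replicate 1 had few covered C bases for their depth. At chr2:198359052-198359097 (exon 12) 3 of 89 covered C bases were edited (3.37%, 95% Wilson interval 1.15% to 9.45%) although 13 C bases lay under a mean depth of 458. At chr2:198359641-198359686, the only intronic cluster among the 83, 3 of 30 were edited (10.0%, 3.46% to 25.6%) although 6 C bases lay under a mean depth of 539. The coverage per C base was 0.0150 and 0.00928 of the mean depth in these clusters, against 0.688 to 1.33 (median 1.01) in the other 81. A ratio under 0.1 was found in 1.24% of all other clusters, 507 of 40760. What lowered it here was not tested.

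**Figure D2:**
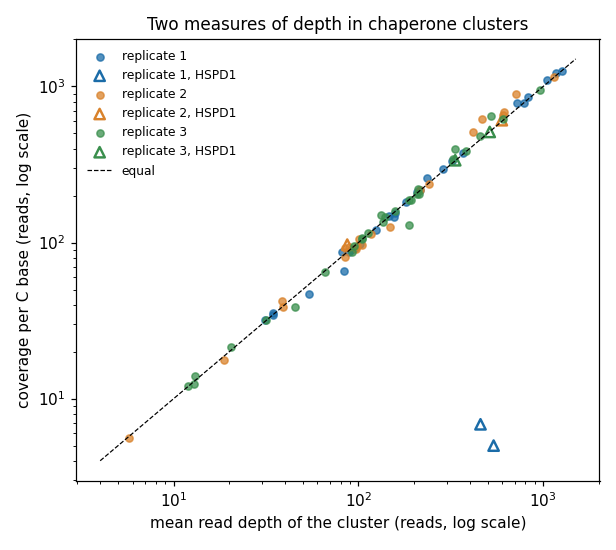
Each point is 1 of the 83 chaperone clusters, with its mean read depth on the x axis and its covered C bases divided by its number of C bases on the y axis (both in reads, log scales), and the dashed line marks equality. Triangles are HSPD1. The 2 HSPD1 clusters of replicate 1 lie far under the line, at 0.0150 and 0.00928 of the mean depth, and the other 81 lie along it.

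Among HSPD1 clusters the one with the most edited reads was at chr2:198351740-198351785 in exon 0, found in replicate 3, with 11 of 706 reads and 0.391% of C bases edited. The one with the most edited bases, at chr2:198353756-198353861 in exon 6 in replicate 2, had 40 edited bases in 10 reads of 1354. HSPA9 minus HSPD1 was -4.47, 0.415 and 0.322 percentage points (exact two-sided sign-flip permutation p = 1, with 0.25 the smallest possible). Without the clusters of low coverage per C base, which left replicates 2 and 3, the mean difference was 0.369. The pseudogene HSPD1P1, not counted here, had 1 cluster, in replicate 2, with 2 edited bases of 25 covered C bases.

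**Figure D3:**
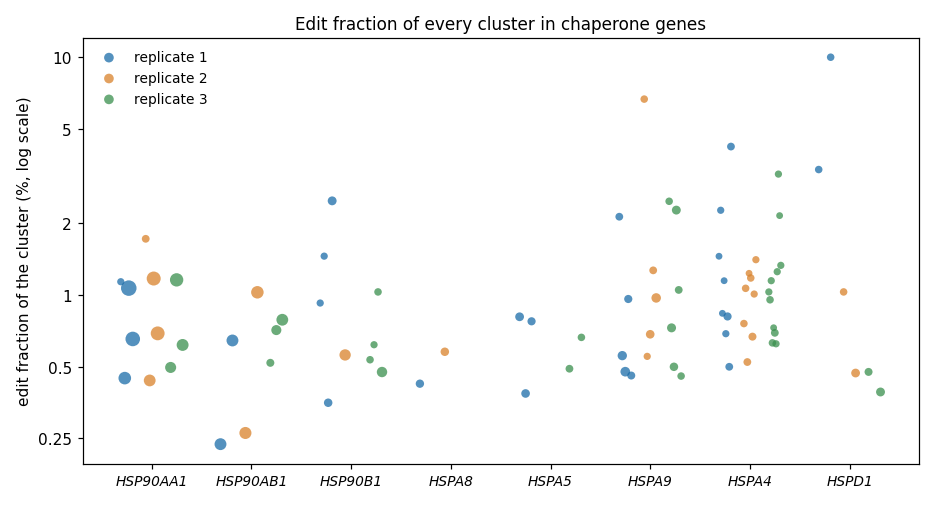
Each point is 1 of the 83 clusters, placed by gene (x axis) and edit fraction (y axis, percent, log scale), coloured by replicate and drawn larger with more edited reads. The larger points of HSP90AA1 lie between 0.438% and 1.17%, the many small points of HSPA4 between 0.500% and 4.21%, and the HSPD1 points of replicate 1 at 3.37% and 10.0% stand above those of the other replicates.

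HSPD1 came first by mean pooled edit fraction only through replicate 1, and its mean without that replicate (0.451%) was below that of every other gene, as was its mean edited-read share (0.951%). By pooled edit fraction the other genes followed in the order HSPA4, HSP90AA1, HSPA9, HSP90B1, HSPA5, HSP90AB1 and HSPA8. With all replicates kept, each gene's range overlapped that of its neighbour in this order, so no neighbouring pair was separated beyond its spread. At a depth of at least 50, HSPA4 (0.722%) was below HSP90AA1 (0.756%). Mean edited-read shares gave another order, with HSP90AA1 at 5.38%, HSP90AB1 at 3.84%, HSPA9 at 3.00% and HSP90B1 at 2.93%. HSPA4 followed at 2.02%, HSPA5 at 1.80% and HSPA8 at 1.52%. Of the 4 gene pairs set side by side, 3 had enough replicates for a test and none passed it, which the number of replicates did not allow in any case.

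The chaperone clusters were next compared with all other clusters of the same libraries. They were deeper, with a median over clusters of the mean depth of 147 ± 38.9 against 23.6 ± 2.22, and 84.3% ± 4.74 against 27.1% ± 2.39 had a mean depth of at least 50. Their pooled edit fraction was lower, at 0.618%, 0.635% and 0.709% against 0.944%, 0.938% and 1.00%. The differences were -0.326, -0.303 and -0.291 percentage points (mean -0.307 ± 0.0178, lower in 3 of 3 replicates). For this pooled difference the exact two-sided sign-flip permutation test over replicates gave p = 0.25, the smallest possible. By edited-read share the direction was not shared, with 3.93%, 4.27% and 3.25% in chaperone clusters against 3.88%, 3.87% and 4.21% in the others. Among clusters with a mean depth of at least 50, the medians were 0.704% ± 0.0827 and 0.784% ± 0.00983, and their differences of 0.0192, -0.103 and -0.154 percentage points did not share a sign (exact permutation p = 0.5).

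Split by depth over all replicates, the median edit fraction of chaperone and other clusters was 2.14% and 2.19% under a depth of 50 (13 chaperone clusters) and 0.926% and 0.833% between 50 and 200 (35). It was 0.560% and 0.543% between 200 and 500 (19) and 0.570% and 0.481% from 500 upwards (16). The chaperone median over all replicates was thus the lower one under a depth of 50 and the higher one in the other classes. It did not fall from the third class to the last. By replicate, only the direction under 50 was shared by all 3. Replicate 3 was lower between 50 and 200 (0.694% against 0.831%) and between 200 and 500 (0.505% against 0.546%). Replicate 2 was lower from 500 upwards (0.470% against 0.491%), after 0.631% between 200 and 500. The other replicates were higher in these classes. Per the paper, a region of low read depth needs a stronger signal to be called. A fall of the edit fraction with depth is thus built into the calling and is not by itself a property of the editing. Read depth moved with the pooled difference, and its part in it was not tested. Chaperone clusters were also poorer in C, with 16.1 ± 0.269 C bases per 100 bases against 19.7 ± 0.387, lower in 3 of 3 replicates (exact sign-flip permutation p = 0.25). An edited read carried 1.58 ± 0.0263 edits in chaperone clusters and 1.64 ± 0.0413 in the others. Clusters of at least 100 bases made up 20.7%, 34.8% and 19.4% of chaperone clusters and 8.59%, 8.25% and 7.95% of the others.

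**Figure D4:**
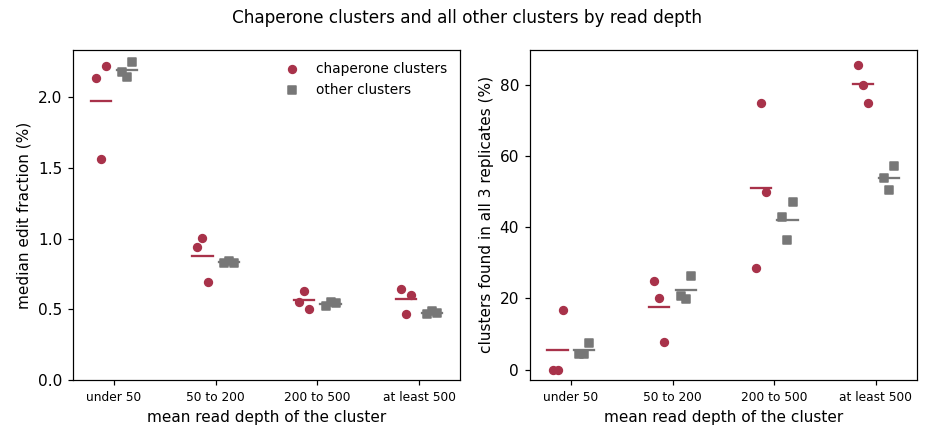
Clusters are grouped by mean read depth (x axis). The left plot gives the median edit fraction (percent) and the right plot the share found in all 3 replicates (percent); each point is a replicate and each line the mean of 3, with chaperone clusters as circles and other clusters as squares. The median edit fraction falls from class to class in the other clusters, and in the chaperone clusters up to a depth of 500. The cluster calling asks for a stronger signal at low read depth, so a fall with depth is built into it. The shares found in all 3 replicates rise with depth in both sets, from 7.69% to 81.3% of chaperone clusters and from 5.29% to 53.4% of the others over all replicates.

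A cluster counted as found in another replicate when a cluster there shared 1 base or more with it on its own strand. Of the chaperone clusters, 11 of 29, 9 of 23 and 9 of 31 in replicates 1, 2 and 3 were found in all 3 replicates, a mean of 35.4% ± 5.52. Of all clusters, 10.6%, 9.86% and 13.1% were. The recurrent clusters were those of HSP90AA1 (9 of 11), HSP90AB1 (6 of 7), HSP90B1 (4 of 9) and HSPA9 (10 of 16), while HSPA4 (27 clusters), HSPD1, HSPA5 and HSPA8 had none. By gene, 6 of the 8 with a cluster had one in each replicate, against 37.9% of all genes with a cluster. The share found in all 3 replicates moved with the number of edited reads in both sets. It was 0 of 6 chaperone clusters with 1 edited read (2.21% of the others), 0 of 29 with 2 or 3 (5.46%), 25.0% of 24 with 4 to 10 (26.5% of the others) and 95.8% of 24 with at least 11 (79.3% of the others). The exception among the last was the HSPD1 cluster of replicate 3 named above. By depth, the shares of chaperone and other clusters were 7.69% and 5.29% under 50, 17.1% and 21.7% between 50 and 200, 47.4% and 41.4% between 200 and 500, and 81.3% and 53.4% from 500 upwards. Over all replicates, chaperone clusters had the higher share in 3 of the 4 classes and the lower share in the other. A locus found in all replicates counts once in each of them. By replicate, the direction was shared by all 3 only from 500 upwards. Clusters with at least 11 edited reads were 29.0% ± 1.42 of chaperone clusters and 4.07% ± 0.266 of the others, and clusters with 1 edited read were 7.05% ± 3.04 and 30.7% ± 2.56.

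Loci with identical bounds in 2 replicates were tested for a difference in edited-read share by Fisher's exact test, fitted over all genes. After Benjamini-Hochberg adjustment, 0.18% of 556 loci differed between replicates 1 and 2, 0.489% of 409 between 1 and 3 and 0.625% of 480 between 2 and 3. Of these tests 5 were in chaperone genes and 0 were called, with 0 at an unadjusted p under 0.05 (lowest p of the exact test 0.102, adjusted p = 1). That lowest p was at the downstream HSP90AB1 cluster, with 60 edited reads of 1182 in replicate 1 and 58 of 846 in replicate 3, or 5.08% and 6.86%. The upstream one had 2.79% and 3.18% in replicates 1 and 2, and the HSP90B1 locus in exon 30 had 4.69% and 3.50% in replicates 2 and 3. The HSPA9 cluster at chr5:137891156-137891231 had 1.91% and 2.88% in replicates 2 and 3. The HSPA4 cluster at chr5:132412556-132412590 had 1 edited read in each of replicates 1 and 2, of 104 and 105. The test compares libraries, not conditions. Only loci called in both replicates could enter it, and 33 of the 50 chaperone loci were found in 1 replicate. The absence of calls therefore does not show that chaperone loci in general were edited alike. When clusters that overlapped with different bounds were compared instead, 1 of 45 chaperone comparisons was called, against 36 of 8742 (0.412%) over all genes. It lay between the short HSP90B1 cluster of replicate 1 and the long one of replicate 2 (0.985% and 4.69%, Fisher's exact test, adjusted p = 0.00105).

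By position in the transcript, the chaperone genes on the minus strand (HSP90AA1, HSPA8, HSPA5, HSPA9 and HSPD1) had most of their clusters in exon 0, the one nearest the 3′ end. It held 86.7%, 91.7% and 92.3% of their clusters, against 63.9%, 58.9% and 61.0% of the other minus-strand clusters, in which single-exon genes are included. It held 99.3%, 93.6% and 98.3% of their edited bases, against 62.4%, 52.7% and 58.0% of those of the others. All edited bases of HSP90AA1, HSPA5 and HSPA8 were in that exon, whereas HSPD1 had 0.0%, 6.98% and 100% there. For all 8 genes with clusters, the last exon with a cluster was taken on the plus strand. The share was then 62.1%, 69.6% and 71.0% of clusters and 95.6%, 92.8% and 93.7% of edited bases. HSPA4, on the plus strand, had 1 of 8, 2 of 8 and 6 of 11 clusters there. No such share was computed for the other plus-strand clusters. No annotation of untranslated regions in the hg19 build was used here, so coding and untranslated parts of these exons were not separated. The RNA was labelled as poly(A) RNA, and how read coverage ran along the whole transcripts was not tested.

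Co-chaperones and related folding factors were then counted from a list of 55 genes. Of these, 46 had a cluster in any replicate, 28 in all 3, 11 in 2 and 7 in 1, and 9 had none. Of all genes with a cluster in any replicate, 37.9% had one in all 3. The listed genes held 112, 115 and 100 clusters, of which 21, 24 and 24 were found in all 3 replicates. Over all clusters that share was 10.6%, 9.86% and 13.1%. The list was not tested against these shares. By edited reads, DNAJC8, a J-domain protein associated with splicing factors, came first, with 297 edited reads over the 3 replicates and a pooled edit fraction of 0.829% ± 0.0375. ST13, which binds HSP70, had 1.04% ± 0.191 and the HSP70 co-chaperone DNAJA1 had 0.760% ± 0.127. Among partners of HSP90, PTGES3 (p23) had 0.537% ± 0.0975, AHSA1, an activator of its ATPase, had 0.566% ± 0.121, and CDC37, which brings kinases to HSP90, had 2.05% ± 0.409. CDC37 had 1 cluster in each replicate, at 2.51%, 1.93% and 1.72% with mean depths of 275, 217 and 175. Each of these was above the pooled edit fraction of every HSP90 gene in the same replicate. The CDC37 values rest on a single cluster, whereas most HSP90 values pool several. Edited bases of CDC37 equalled its edited reads in each replicate (53, 33 and 24), and the number of C positions edited was not examined. HSBP1, which binds heat shock factor 1, had 0.997% ± 0.220, and DNAJB6, a J-domain protein, had 1.59% ± 0.354 at mean depths of 12.4 to 49.8.

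The number of reads in clusters was 1637592, 1731304 and 1104249 in replicates 1, 2 and 3, which is not the depth of the libraries. RBFOX2 itself, the RNA-binding part of the fusion, had 17, 16 and 16 clusters. Abundance of each mRNA was not measured here and cannot be told apart from recruitment of the fusion in the number of edited bases.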

How the data were processed

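Per the labels, the RNA of 3 replicates came from HEK293T cells (HEK293XT in the cell line label) after 72 h, and the submitters' processing notes name STAR and hg19, with no version. The authors called C-to-U sites with SAILOR and clusters with FLARE, using windows of 30 bases, an adjusted p of 0.1 and a merging distance of 15 bases, separately for each replicate. The authors deposited, for every cluster, unscaled whole-number counts of reads, of reads with an edit, of C bases, and of C bases covered and edited over all reads. The deposited fractions of edited bases and of edited reads were recomputed from these counts and were equal in all clusters within a relative tolerance of 1e-09. Mean read depth is the authors' coverage signal without scaling between libraries, and their score is a negative binomial cumulative probability. Windows that failed were not analysed here, so depth limits which regions appear, and the reads in clusters are not the library depth.

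Pooled edit fractions per gene and replicate were computed in Python 3.11.15 (pandas 2.3.3 and NumPy 2.4.6), with tests in SciPy 1.17.1 and figures in matplotlib 3.10.9. Mean and SD are over 3 replicates. Pairs from one library were compared by exact two-sided sign-flip permutation tests over replicates. Loci with the same bounds and at least 10 reads in both replicates were compared by Fisher's exact test (two-sided), adjusted over all loci by Benjamini-Hochberg with a threshold of 0.05. The study calls the replicates biological without naming separate cultures, so p-values of the permutation tests measure only the spread between these samples. Those of Fisher's exact test measure counting error of reads in 2 libraries, not that spread. Intervals are Wilson 95% intervals and cover counting error only, since reads carried no molecular identifiers. The overlap search was checked against a direct search on clusters of replicates 1 and 2, and the Fisher's exact test was tested on simulated counts.

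The genes, the list of 55 co-chaperones and the pairs were chosen with earlier results of these data known. All 10 chaperone genes are named. Loci named are those found in all 3 replicates and, in genes without one, the cluster with most edited reads. Of the co-chaperones, at most 8 with clusters in all 3 replicates were named, by edited reads. A few further clusters (the small HSP90AA1 cluster, those with extreme edit fractions or edits per read, and the HSPD1 clusters of replicate 1) were named after their values were seen. Coordinates are as deposited (hg19), and sequence of that build was not used here. Alternatives were score limits of 0.95 and 0.99, a depth of at least 50, at least 2 edited reads, medians, edited reads over reads, other overlaps, unpaired permutation tests and each replicate left out.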

Additional observations from a re-analysis of the deposited data

How the results depend on the processing

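The mean difference in pooled edit fraction between chaperone and other clusters was negative under every alternative run, from -0.0618 percentage points at a depth of at least 50 to -0.865 with medians of clusters. With edited reads over reads it was -0.170 ± 0.711 (exact permutation p = 1), and chaperone clusters were higher in replicates 1 and 2. The mean of HSP90AA1 minus HSP90AB1 was positive throughout, but with medians of clusters it was 0.204 ± 0.268 (exact permutation p = 0.5), negative in replicate 3. The share of chaperone clusters found in all 3 replicates was 45.4% at a score of at least 0.99 and 18.4% when 50% of both clusters had to overlap, and found in both remaining replicates it was 37.9% to 61.9% with 1 replicate left out. HSPA9 minus HSPD1, negative in the mean, was 2.05 with edited reads over reads and 0.369 without clusters of low coverage per C base, an alternative chosen after seeing the data, and -2.08 to 0.369 with 1 replicate left out (0.369 without replicate 1). HSP90B1 minus HSPA5 was -0.0596 without replicate 1, 0.140 without replicate 3 and 0.826 at a score of at least 0.99. The loci that differed between replicates numbered 6 with the same bounds and 36 of 8742 tests with an overlap of at least 1 base, and 1 to 3 with 1 replicate left out, where fewer loci were tested. Elsewhere the cause was not tested. A difference counted as kept when its mean had the same sign, whatever its size, and a count when it stayed within a fixed fold limit. Shares and single-gene values counted as kept when they moved by less than the SD between replicates. By these rules 52 of 57 values of comparisons under other alternatives were kept, and 19 of 26 with 1 replicate left out. For single genes 66 of 80 were kept. HSPA8 minus HSPA5 gave no value at a score of at least 0.99 or without replicate 1. The unpaired exact permutation tests gave p = 0.3 for HSP90AA1 against HSP90AB1 and 0.667 or more for the other pairs. No paired analysis was possible because there is a single condition, as far as pairing replicate numbers across groups goes. Genes and sets of clusters were paired within each library throughout. Few edited reads per cluster limit the precision in HSPA4, HSPA8, HSPA5 and HSPD1.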
